A study of Mus musculus with 6 samples.

Results

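Phip and 8 further bromodomain genes, Brwd1, Brdt, Brd2, Brd3, Brd7, Atad2, Atad2b and Cecr2, were followed in the testis RNA of mice that lack SEL1L in male germ cells. The 9 genes were matched by their GENCODE M21 symbols among the 55536 genes counted in each mouse, and all 9 were among the 21465 genes that passed a filter on low counts. Phip entered the list because earlier results of these mice had shown it to be higher in the knockout, and the others were set beside it with those results known. Their differences between the groups are therefore given as a description, and no p-value is printed for any of them. How many and which of them passed a threshold is a description too, and no test of a member. The question addressed was whether the difference of Phip was shared by Brwd1, Brdt and the other readers.

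Testes of 3 KOStra8 and 3 HETStra8 mice were compared at 7 weeks of age, with 1 poly(A)+ directional library per mouse. KOStra8 mice were Sel1L flox/∆;Stra8-Cre, with Cre recombinase driven by a promoter of male germ cells. Under the name HETStra8 the study pooled Sel1L flox/+;Stra8-Cre and Sel1L flox/∆ animals, while the deposited record gives flox/∆ littermates and does not mention Cre. The genotype of the single HETStra8 mice was not given. This Cre acts in only part of the spermatogonia, and the study still found SEL1L in spermatogonia and Sertoli cells of KOStra8 testes, which limits the mice as a model of complete loss. The whole testis was sequenced, so that fewer cells of a type and less RNA per cell cannot be told apart in any value given here.

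A bromodomain is a protein module that binds acetylated lysines, above all those in the tails of histones, and so recruits other proteins to open chromatin. Brd2, Brd3 and Brdt belong to the BET family, which couples acetylated histones to transcription, and Brdt is made in male germ cells, where it is needed for the meiotic gene programme and for the compaction of chromatin in spermatids. Phip and Brwd1 are paralogues that join WD repeats to bromodomains and can serve as substrate receptors of CUL4 ubiquitin ligases, Atad2 and Atad2b join a bromodomain to an ATPase of the AAA class, Brd7 is a subunit of a SWI/SNF remodeller, and Cecr2 partners the ISWI ATPases.

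The libraries held 28875108 to 36526695 counts, with TMM factors of 0.990 to 1.01 and a common biological coefficient of variation of 0.160. Levels are given as CPM, counts relative to the TMM-scaled library total, and log2 fold changes as KOStra8 over HETStra8 from edgeR's fit to all tested genes. The targeted gene, Sel1l, was at 49.3, 47.6 and 42.4 CPM in HETStra8 mice 1 to 3 and at 24.2, 22.0 and 20.3 CPM in KOStra8 mice 1 to 3, so that the groups did not overlap. Germ cell markers were high in both groups, with the summed level of 12 pachytene and diplotene markers at 8200 to 8690 CPM in HETStra8 and 7920 to 8390 CPM in KOStra8 testes. HETStra8 mouse 3 stood apart from its group along the GC content of genes, as described further on, and the values of the members without it are given there.

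The start of transcription is shown for 4 genes whose levels are compared below, Phip, its paralogue Brwd1, the testis reader Brdt, and Atad2b, the member whose profile over the mice was closest to that of Phip. The sequences are RefSeq promoters of GRCm38.p6, 5′ to 3′ on the strand of the gene, cut where the GENCODE gene begins. Capitals mark matches, on either strand, to 7 motifs that were searched in the 250 bases before the RefSeq start: the GC box GGGCGG, the CRE TGACGTCA, CCAAT, the E-box CACGTG, the ETS motif CCGGAAG, the MYB motif CNGTTG and the palindromic motif of NRF1.
Phip, chr9:82975517-82975739, minus strand: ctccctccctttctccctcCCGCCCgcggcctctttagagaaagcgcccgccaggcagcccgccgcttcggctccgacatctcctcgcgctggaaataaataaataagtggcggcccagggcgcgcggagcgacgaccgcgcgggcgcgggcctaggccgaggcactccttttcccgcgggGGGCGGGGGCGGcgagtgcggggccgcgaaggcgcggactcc
Brwd1, chr16:96082527-96082678, minus strand: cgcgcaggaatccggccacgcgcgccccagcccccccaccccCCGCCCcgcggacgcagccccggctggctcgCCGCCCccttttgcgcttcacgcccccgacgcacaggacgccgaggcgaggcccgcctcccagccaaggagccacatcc
Brdt, chr5:107330944-107331158, plus strand: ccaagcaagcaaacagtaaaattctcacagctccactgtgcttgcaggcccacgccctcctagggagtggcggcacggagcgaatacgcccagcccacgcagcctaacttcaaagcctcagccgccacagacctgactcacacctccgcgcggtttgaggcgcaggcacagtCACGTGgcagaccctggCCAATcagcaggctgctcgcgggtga
Atad2b, chr12:4917103-4917352, plus strand: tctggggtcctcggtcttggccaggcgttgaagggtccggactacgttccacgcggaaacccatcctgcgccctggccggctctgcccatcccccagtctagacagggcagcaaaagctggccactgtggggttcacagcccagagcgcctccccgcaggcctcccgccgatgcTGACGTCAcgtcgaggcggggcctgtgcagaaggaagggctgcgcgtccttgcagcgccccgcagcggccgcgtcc

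The Phip and Brwd1 promoters each held 3 GC boxes, 1 of those of Brwd1 lying beyond the printed run, and a GC box was found in 32.7% of 32851 RefSeq promoters. Of the 3 in Phip, the pair at 69 and 63 bases before the start lie end to end. Brdt held neither a GC box nor a CRE but an E-box, found in 6.02% of promoters, and a CCAAT, found in 33.8%. Atad2b held a CRE, found in 1.55% of promoters, at 76 bases before its start. No motif other than the GC box was shared by any pair of these 4 windows. The 250 bases were GC-rich in Phip (72.4%), Brwd1 (79.6%), Atad2b (69.6%) and Brdt (62.4%), against a median of 52.4% over all promoters. For Phip this stands against a transcript that is poor in GC, with 38.7% in its longest form of 10756 bases.

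Phip, listed because it was higher in these mice, showed the widest difference of the 9 genes, and no other member came near it. Given that choice, the size and rank of its difference are descriptions only. Phip (ENSMUSG00000032253, chromosome 9 of GRCm38, 82866159 to 82975516) was at 16.2, 12.3 and 21.3 CPM in HETStra8 mice 1 to 3 and at 37.1, 29.5 and 36.6 CPM in KOStra8 mice 1 to 3. The lowest KOStra8 mouse lay above the highest HETStra8 mouse. The means were 16.6 ± 4.49 and 34.4 ± 4.24 CPM (SD, n = 3 each), a ratio of 2.07, and the log2 fold change was 1.05 (SE 0.178). By log2 fold change Phip ranked 252 of the 21465 genes tested. These values rest on 415 to 709 counts in HETStra8 and 854 to 1335 in KOStra8 libraries. Without HETStra8 mouse 3, the highest of its group, the log2 fold change of Phip was 1.28, and without HETStra8 mouse 2, the lowest, it was 0.88.

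Brwd1 (ENSMUSG00000022914, chromosome 16, 95992092 to 96082526), the paralogue of Phip needed for the maturation of sperm and oocytes, was at 80.7, 91.9 and 90.3 CPM in HETStra8 mice 1 to 3. In KOStra8 mice 1 to 3 it was at 97.9, 92.6 and 98.9 CPM. The groups did not overlap, but KOStra8 mouse 2 lay only just above HETStra8 mouse 2. The means were 87.6 ± 6.04 and 96.5 ± 3.37 CPM (SD, n = 3 each), a log2 fold change of 0.14 (SE 0.0807), and of 0.08 without HETStra8 mouse 1. The level of Phip as a percent of that of Brwd1 within the same mouse was 20.1, 13.4 and 23.6 in HETStra8 and 37.9, 31.9 and 37.0 in KOStra8 testes. This ratio of the paralogues thus moved with Phip. As Phip was listed for being higher in these mice, the ratio adds no separate evidence.

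Among the BET genes, Brdt was higher on average and Brd2 lower, each with overlap between the groups. Brdt (ENSMUSG00000029279, chromosome 5, 107331159 to 107387058) was at 242, 292 and 320 CPM in HETStra8 mice 1 to 3 and at 333, 318 and 347 CPM in KOStra8 mice 1 to 3. HETStra8 mouse 3 lay within the KOStra8 range and HETStra8 mouse 1 was the lowest of all. The means of Brdt were 284 ± 39.4 and 333 ± 14.7 CPM (SD, n = 3 each), with a log2 fold change of 0.23 (SE 0.0916), and of 0.12 without HETStra8 mouse 1. Brd2 (ENSMUSG00000024335, chromosome 17, 34112023 to 34122634), a BET reader also found in somatic cells, was at 520, 515 and 423 CPM and at 427, 446 and 440 CPM. HETStra8 mice 1 and 2 were above the KOStra8 mice and HETStra8 mouse 3 was below all of them. The means of Brd2 were 486 ± 54.8 and 438 ± 9.38 CPM (SD, n = 3 each), a log2 fold change of −0.15 (SE 0.0805).

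Brd3 (ENSMUSG00000026918, chromosome 2, 27445579 to 27507662) was nearly even across the mice, at 269, 266 and 262 CPM in HETStra8 and 249, 262 and 260 CPM in KOStra8 mice 1 to 3. The KOStra8 mice lay below the HETStra8 mice, the nearest pair by less than 1 CPM. The means were 266 ± 3.49 and 257 ± 7.16 CPM (SD, n = 3 each), with a log2 fold change of −0.05 (SE 0.0659). The level of Brdt as a percent of that of Brd2 was 46.5, 56.7 and 75.6 in HETStra8 and 77.8, 71.4 and 78.9 in KOStra8 mice, so that HETStra8 mouse 3 fell among the KOStra8 mice for the balance of these BET readers. Part of the Brd2 exons, 765 of 7826 bases, lie opposite exons of H2-DMa and CR974462.3, and the strand setting of the counting was not given in the sources used here.

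The paralogues Atad2 and Atad2b, in which the bromodomain sits beside an ATPase, differed by similar amounts. Atad2 (ENSMUSG00000022360, chromosome 15, 58094044 to 58135082) was at 42.7, 52.9 and 62.4 CPM in HETStra8 mice 1 to 3 and at 66.2, 69.4 and 63.7 CPM in KOStra8 mice 1 to 3. The groups did not overlap, with HETStra8 mouse 3 close beneath KOStra8 mouse 3. The means of Atad2 were 52.7 ± 9.88 and 66.4 ± 2.85 CPM (SD, n = 3 each), a log2 fold change of 0.33 (SE 0.118), and of 0.20 without HETStra8 mouse 1. Atad2b (ENSMUSG00000052812, chromosome 12, 4917353 to 5047394) was at 16.4, 17.2 and 23.0 CPM and at 24.4, 23.2 and 25.0 CPM. Here too the groups did not overlap and HETStra8 mouse 3 came nearest to the knockouts. The means of Atad2b were 18.9 ± 3.56 and 24.2 ± 0.891 CPM (SD, n = 3 each), a log2 fold change of 0.36 (SE 0.130). The level of Atad2 as a percent of that of Atad2b was 260, 307 and 272 in HETStra8 and 271, 299 and 255 in KOStra8 mice, with the groups overlapping.

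The remodeller subunits were nearly level. Brd7 (ENSMUSG00000031660, chromosome 8, 88331039 to 88362194), which males need for spermatogenesis, was at 74.9, 81.8 and 86.0 CPM in HETStra8 and 80.8, 84.2 and 84.0 CPM in KOStra8 mice 1 to 3. All 3 KOStra8 mice fell inside the HETStra8 range, and the means were 80.9 ± 5.63 and 83.0 ± 1.92 CPM (SD, n = 3 each), with a log2 fold change of 0.04 (SE 0.0811) that turned to −0.02 without HETStra8 mouse 1. Cecr2 (ENSMUSG00000071226, chromosome 6, 120666369 to 120771190), known for its part in closing the neural tube, was at 60.3, 62.1 and 59.4 CPM and at 59.6, 54.7 and 56.5 CPM. KOStra8 mouse 1 lay between HETStra8 mice 3 and 1, and the other two were below all HETStra8 mice. The means of Cecr2 were 60.6 ± 1.37 and 56.9 ± 2.44 CPM (SD, n = 3 each), a log2 fold change of −0.09 (SE 0.0813).

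**Figure D1:**
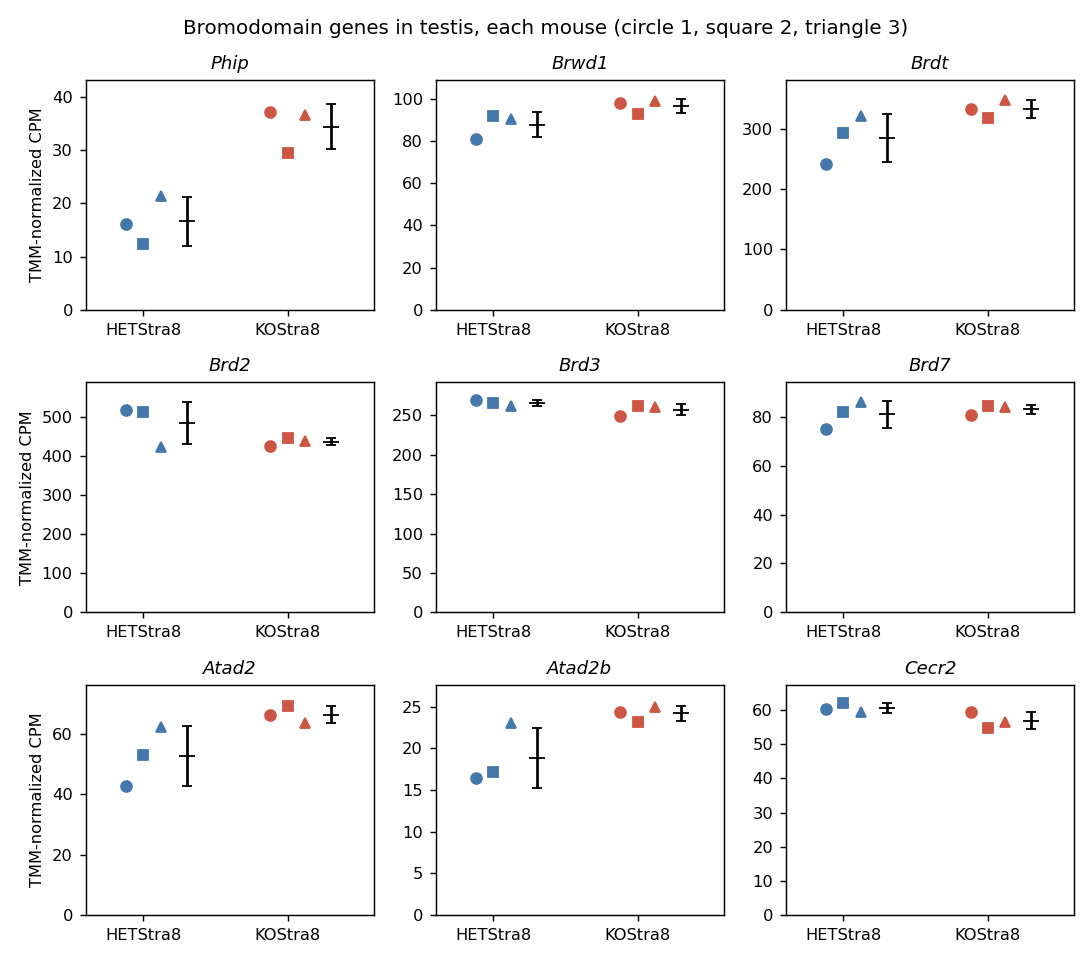
TMM-normalized CPM (y axes, from 0) of the 9 bromodomain genes in each of 3 HETStra8 (blue) and 3 KOStra8 (red) testes, with the mean and SD of each group in black. The 3 KOStra8 mice of Phip sit at 29.5 to 37.1 CPM, above the 12.3 to 21.3 CPM of the HETStra8 mice, while the other 8 genes differ by a log2 fold change of 0.36 or less in size.

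Counted over the 9 genes, 4 (Phip, Brdt, Atad2 and Atad2b) were higher in KOStra8 testes at an unadjusted p below 0.05 in edgeR's quasi-likelihood test, beside 7.13% of all genes tested, and 0 were lower, beside 5.12%. Since the genes were listed with this comparison known, nothing is read from these counts. Without HETStra8 mouse 1 the number higher was 2, beside 1156 of 22173 genes tested in that fit. Without HETStra8 mouse 3 the number lower was 1 (Brd2), beside 1947 of 22091 genes. All KOStra8 mice lay above all HETStra8 mice for 4 members (Phip, Brwd1, Atad2 and Atad2b), beside 9.33% of all genes, and below them for 1 (Brd3), beside 8.43%. A log2 fold change above 0 was found for 6 members, beside 48.5% of all genes, and the median was 0.14 for the members and −0.01 for all genes. At the cutoffs of the study, a fold of 2 and an adjusted p below 0.01, 0 members passed in edgeR, beside 0.00466% of all genes in either direction, and 1, Phip, passed in DESeq2. At the same cutoffs Phip also passed in edgeR without HETStra8 mouse 3 and without the filter on low counts. The share of all genes past the cutoffs in DESeq2 and in these settings was not counted, so that nothing is read from the passes. Without HETStra8 mouse 3, 2428 genes were higher at an unadjusted p below 0.05 in edgeR, beside 1530 with all mice. Over all genes tested, 1 was higher and 1 was lower past these cutoffs in edgeR with all mice. The study reported far more genes in both directions, so that the edgeR fit called fewer genes than the study did. Why the calls differ was not tested. The study also lists qPCR primers for Phip, while its text names no qPCR result for this gene.

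Levels between genes were compared per length, as counts per kilobase of the longest transcript rescaled to the same total in every mouse as CPM. Brd2 was highest, at 254 ± 27.7 in HETStra8 and 234 ± 1.51 in KOStra8 testes (SD, n = 3 each), followed by Brdt at 146 ± 21.7 and 174 ± 9.71 and Brd3 at 119 ± 1.22 and 118 ± 1.72. By this length Brdt and Brd3 did not overlap in either group, although they lay close in HETStra8 mice, where the lowest Brdt value was 122 and the highest Brd3 value 121. Brd7 followed at 54.4 ± 4.35 and 56.9 ± 0.670. Atad2 (22.6 ± 4.43 in HETStra8) and Brwd1 (21.7 ± 1.75) did not differ beyond their spread in HETStra8 testes. Cecr2 was at 16.0 ± 0.469 in HETStra8 testes, below both.

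Phip and Atad2b were the lowest, at 3.76 ± 1.02 and 5.72 ± 1.11 in HETStra8 and at 7.96 ± 1.11 and 7.49 ± 0.383 in KOStra8 testes (per length, SD, n = 3 each). Phip was thus last in HETStra8 testes, just under Atad2b, and the order of these 2 genes turned in KOStra8 testes, where they overlapped. By this length the 7 higher members kept their order in KOStra8 testes. With the mean length of the protein-coding transcripts in place of the longest, Phip was already above Atad2b in HETStra8 testes (4.76 ± 1.30 and 4.18 ± 0.815), so that the turn rests on the length used. With those lengths Brwd1 (32.9 ± 2.63) and Cecr2 (27.2 ± 0.747) also ranked above Atad2 (20.5 ± 4.02) in HETStra8 testes, and Atad2 (26.3 ± 0.938) and Cecr2 (26.1 ± 1.54) changed places in KOStra8 testes, where they did not differ beyond their spread. Brdt (159 ± 23.6) and Brd3 (139 ± 1.21) then did not differ beyond the SD of Brdt in HETStra8 testes.

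**Figure D2:**
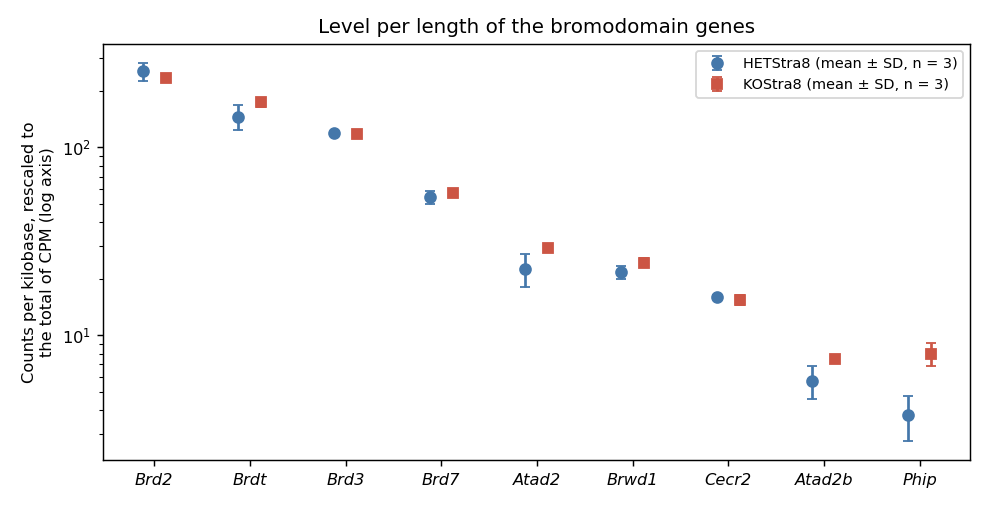
Level per length (counts per kilobase of the longest transcript, rescaled to the total of CPM, log axis) of the 9 genes in HETStra8 (circles) and KOStra8 (squares) testes, as mean ± SD of 3 mice each. Brd2 is highest at 254 and 234, and Phip lies at 3.76 in HETStra8 and 7.96 in KOStra8 testes, the largest step between the groups.

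The differences of the members followed the GC content of their transcripts. Ordered from poor to rich in GC, Phip (38.7%), Atad2 (41.5%), Atad2b (43.5%), Brdt (45%) and Brwd1 (45.5%) had log2 fold changes of 1.05, 0.33, 0.36, 0.23 and 0.14. Brd7 (47.2%), Cecr2 (47.3%), Brd3 (51.3%) and Brd2 (57.7%) had log2 fold changes of 0.04, −0.09, −0.05 and −0.15. Spearman's rho between GC content and log2 fold change was −0.97 over the 9 members, −0.75 over these and 31 other bromodomain genes (n = 40), and −0.46 over all genes tested (n = 21457). These correlations are across genes of the same 6 libraries, which are not independent replicates. Transcript length gave a rho of 0.48 over the members, 0.46 over the 40 bromodomain genes and 0.02 over all genes.

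Phip lay at the percentile 3.89 of all tested genes by GC content, and the 1538 tested genes with up to 40% GC had a median log2 fold change of 0.31, of which 30.0% were higher at an unadjusted p below 0.05. A correction of each library for GC content and transcript length was fitted on genes of these same libraries. After it the rho of all genes was 0.0010 and their median log2 fold change −0.0014. A rho near 0 over all genes follows from the fit itself. The correction also takes out any difference between the groups that runs along GC content or length. Over the 40 bromodomain genes rho was −0.28 after it, and over the 9 members it remained at −0.83. After the correction, the log2 fold change was 0.69 for Phip (SE 0.136), rank 680 of 21465. Atad2b and Atad2 were then at 0.21 (SE 0.113) and 0.15 (SE 0.0955), and Brdt at 0.16 (SE 0.0743).

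Brwd1 (0.02, SE 0.0671), Brd3 (0.02, SE 0.0587), Brd7 (0.03, SE 0.0711) and Brd2 (−0.0017, SE 0.0605) were within their SE of 0 after the correction, and Brd3 changed sign. Cecr2 was lower, at −0.16 (SE 0.0704). At an unadjusted p below 0.05 in the corrected fit of edgeR, 1 member (Phip) was higher, beside 4.07% of all genes, and 1 (Cecr2) was lower, beside 3.51%. A corrected log2 fold change above 0 was found for 7 members, beside 49.7% of all genes, with a median of 0.03. How far GC content itself bears on the levels of these genes was not tested beyond this correction.

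**Figure D3:**
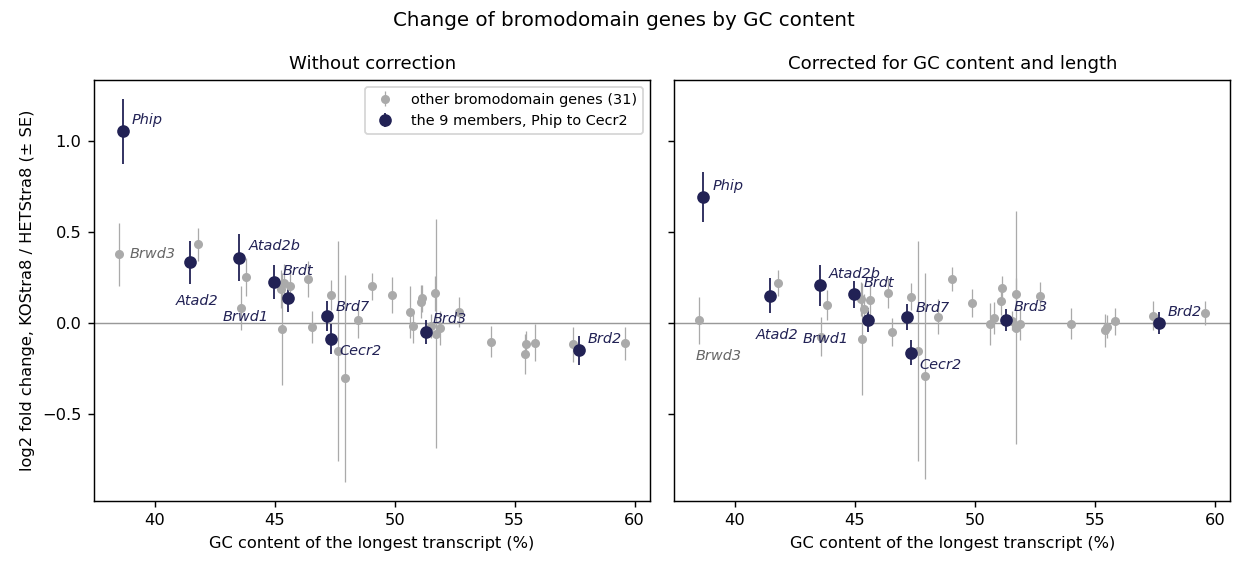
Log2 fold change of KOStra8 over HETStra8 (y axis, bars are ± SE) against the GC content of the longest transcript (x axis, percent) for the 9 members (dark) and 31 other bromodomain genes (grey), without (left) and with (right) a correction for GC content and length. Phip at 38.7% GC falls from 1.05 to 0.69, and Brwd3 at 38.5% from 0.38 to 0.01.

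Within the HETStra8 group, whose mice may differ in genotype, a slope of the same sign was seen in 1 mouse. In HETStra8 mouse 3, Phip was 0.59 above the mean of HETStra8 mice 1 and 2 on the log2 CPM scale, Atad2b 0.45, Atad2 0.39 and Brdt 0.27 above, and Brd2 0.29 below. Brwd1, Brd3 and Cecr2 differed by 0.07 or less in size. Over the 9 members, rho between GC content and this deviation was −0.95, and over all 21457 genes it was −0.30. The deviations of a gene in the 3 mice of a group sum to 0, so that the slopes of the other mice are not independent of this one. Over the members rho was 0.63 and 0.52 in HETStra8 mice 1 and 2 and −0.53, 0.48 and −0.43 in KOStra8 mice 1 to 3. Over all genes it was 0.26 and 0.05 in the former and 0.03, 0.11 and −0.17 in the latter. HETStra8 mouse 3 was thus the HETStra8 mouse nearest to the KOStra8 mice for Phip, Brdt, Atad2 and Atad2b. Without it, the log2 fold changes of Phip, Atad2b, Atad2, Brdt and Brd2 were 1.28, 0.53, 0.48, 0.33 and −0.23, those of Brwd1 and Brd7 were 0.17 and 0.09, and those of Brd3 and Cecr2 were −0.05 and −0.09.

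**Figure D4:**
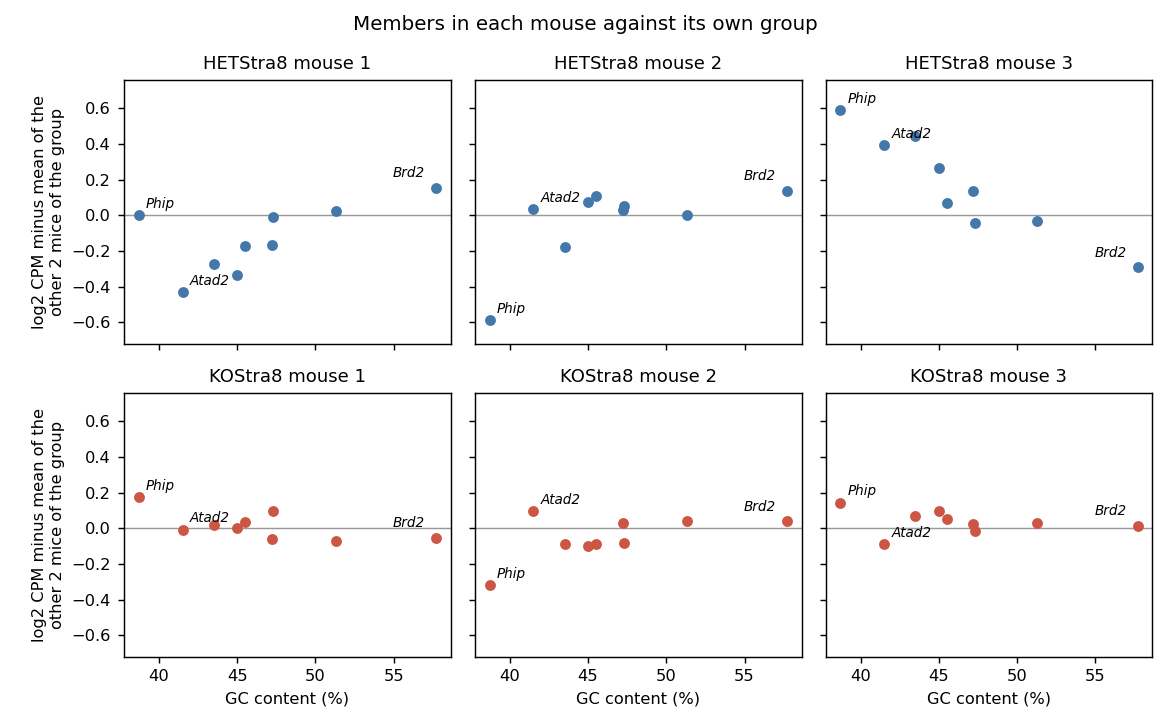
Log2 CPM of the 9 members in each mouse minus the mean of the other 2 mice of its group (y axes), against the GC content of the longest transcript (x axes, percent), for 3 HETStra8 (blue) and 3 KOStra8 (red) mice. In HETStra8 mouse 3 the values run from 0.59 for Phip down to −0.29 for Brd2, and HETStra8 mouse 2 has Phip at −0.59.

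The 31 other bromodomain genes were listed by family membership. Of these, 6 (Ash1l, Baz1a, Baz2b, Pbrm1, Trim24 and Trim33) were higher at an unadjusted p below 0.05, beside 7.13% of all genes, and 0 were lower, beside 5.12%. An adjusted p of 0.05 was passed by 0 of the 31 in edgeR, beside 0.0186% of all genes higher and 0.00466% lower. Without HETStra8 mouse 3 there were 10 higher and 3 lower, beside 2428 higher and 1947 lower of 22091 genes tested in that fit. Without HETStra8 mouse 1, KOStra8 mouse 1 or KOStra8 mouse 3 there were 2 higher. In those 3 fits 1156 of 22173, 1211 of 22031 and 945 of 22023 genes tested were higher. The log2 fold changes of the 31 genes ran from −0.30 to 0.43 with a median of 0.06. None reached that of Phip, which was listed for being higher in these mice. Pbrm1, the polybromo subunit of the SWI/SNF form that Brd7 belongs to, was at 57.4 ± 6.15 CPM in HETStra8 and 77.4 ± 3.54 CPM in KOStra8 testes (SD, n = 3 each). Pbrm1 thus had a log2 fold change of 0.43 with an SE of 0.0924 (adjusted p = 0.112 in edgeR), and of 0.22 after the GC and length correction. Trim24, a transcriptional cofactor, and Baz2b, a partner of ISWI, had log2 fold changes of 0.20 and 0.24 (adjusted p = 0.312 and 0.349 from the same edgeR test). The 3 with the smallest p among those lower were Brpf3, Brpf1 and Trim28, at −0.12, −0.17 and −0.11 (adjusted p of 0.533 to 0.649 in edgeR). After the correction 3 of the 31 genes (Pbrm1, Smarca2 and Trim24) were higher at an unadjusted p below 0.05, beside 4.07% of all genes.

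Brwd3, the third gene of the family of Phip and Brwd1, was singled out after its values were seen, because its transcript matches that of Phip in GC content (38.5%) and length (11619 bases). Brwd3 (ENSMUSG00000063663, chromosome X, 108737016 to 108834372) was at 13.7, 13.9 and 20.9 CPM in HETStra8 mice 1 to 3 and at 19.2, 18.8 and 25.0 CPM in KOStra8 mice 1 to 3. HETStra8 mouse 3 lay among the KOStra8 mice. The log2 fold change of Brwd3 was 0.38 (SE 0.173) without and 0.01 (SE 0.132) with the correction, against 1.05 and 0.69 for Phip. The level of Phip as a percent of that of Brwd3 was 118, 88.7 and 102 in HETStra8 and 194, 157 and 146 in KOStra8 mice. Since Phip was listed for being higher in these mice, this ratio is a description and adds no separate evidence. Over the 8 bromodomain genes with under 45% GC, Phip among them, all 8 had a log2 fold change above 0 (median 0.35), against 10 of 15 genes between 45% and 50% (median 0.14) and 5 of 17 genes above (median −0.05). The median over all tested genes fell with GC content as well. It was 0.31 up to 40%, 0.14 from 40% to 45%, 0.01 from 45% to 50% and −0.09 from 50% to 55%. The gradient is thus not particular to the bromodomain genes.

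Genes of the complexes in which these readers act were described in the same way, with lists chosen by function. Of 25 CUL4 ligase genes, 1 (Cul4b, log2 fold change 0.30, adjusted p = 0.251 in edgeR) was higher and 2 (Ercc8, −0.24, and Wdtc1, −0.19, adjusted p = 0.382 and 0.292 in edgeR) were lower at the unadjusted p of 0.05. These numbers stand beside 7.13% of all genes higher and 5.12% lower. After the GC and length correction 0 were higher, beside 4.07% of all genes, and 2 (Cop1 and Ercc8) lower, beside 3.51%. Of the 25 genes, 9 had a log2 fold change above 0, beside 48.5% of all genes, and the median was −0.09. Cul4b encodes a scaffold of the ligase, and Ercc8 and Wdtc1 encode substrate receptors. Dcaf17 (0.22), Crbn (0.12) and Dcaf15 (−0.19), further receptors, did not pass that p.

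Of 28 tested genes of the SWI/SNF and ISWI remodellers, in which Brd7 and Cecr2 act, 2 were higher and 2 were lower at the unadjusted p of 0.05, with a median of −0.02. Beside the 7.13% and 5.12% of all genes, these numbers are near the background. After the GC and length correction 1 gene (Smarca5) was higher, beside 4.07% of all genes, and 1 (Rbbp4) lower, beside 3.51%. Smarca5, an ISWI ATPase and partner of Cecr2, was at 106 ± 15.7 CPM in HETStra8 and 143 ± 4.23 CPM in KOStra8 testes (SD, n = 3 each), a log2 fold change of 0.44 (adjusted p = 0.115 in edgeR), and 0.22 after the correction. Rsf1, another partner of Smarca5, was at 0.44 as well (adjusted p = 0.231 in edgeR) and at 0.18 after it. Arid2, of the same SWI/SNF form as Brd7, was at 0.11. Dpf1 (−0.37, adjusted p = 0.362 in edgeR) and Rbbp4 (−0.18, adjusted p = 0.379 in edgeR) were lower at the unadjusted p, and Dpf2 was at −0.16. Cecr2, at −0.09 with an SE of 0.0813 and overlap between the groups, was nearly level beside Smarca5.

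Of 30 genes that write or erase histone acetylation, the mark that bromodomains read, 6 (Kat6a, Clock, Hdac2, Hdac8, Sirt1 and Sirt2) were higher and 2 (Kat8 and Hdac6) were lower at the unadjusted p of 0.05, beside 7.13% and 5.12% of all genes, with a median of 0.05. After the GC and length correction 3 (Hdac8, Sirt1 and Sirt2) were higher, beside 4.07% of all genes, and 0 were lower, beside 3.51%. The deacetylase Sirt2 rose from 145 ± 2.85 to 229 ± 4.30 CPM (SD, n = 3 each), a log2 fold change of 0.66 (adjusted p = 0.00081 in edgeR), and was the 1 gene of these 4 lists past an adjusted p of 0.05. It encodes an enzyme found mostly in the cytoplasm, and its log2 fold change was 0.78 after the correction. Sirt1 was at 0.38 (adjusted p = 0.181) and Clock at 0.30 (adjusted p = 0.285) in edgeR, and Hdac6, Kat8 and Hdac5 at −0.21, −0.16 and −0.19.

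The profile of Phip over the 6 mice was compared with those of 13123 tested genes with a mean log2 CPM of at least 2, by the root mean square difference of log2 CPM after centring each gene. Of the 5 closest genes, 4 were Gm15130 (0.15), Zfp518a (0.15), Gm11639 (0.17) and Arhgap5 (0.19), with 33.9% to 40.8% GC. Atad2b was the closest member, at rank 387 with a difference of 0.39, followed by Atad2 at rank 866, Brdt at 1464 and Brwd1 at 2685. Brd7, Brd3 and Cecr2 ranked 4157, 6537 and 7470, and Brd2 was farthest at 10731. After correction for GC content and length the closest genes were Gm47283, Gm19605, BC005561, Gm15130 and Ppp4r3c-ps, of which Gm15130 was also among the 5 before, and Atad2b was again the closest member, at rank 422.

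Markers of somatic cells of the testis were on balance at lower levels in KOStra8 mice. Of 12 Sertoli cell markers 0 had a log2 fold change above 0 (median −0.17), beside 48.5% of all genes. Of the 12, 4 (Gata4, Rhox5, Dhh and Clu) were lower at an unadjusted p below 0.05, beside 5.12% of all genes. The summed levels of the 12 were 1200 to 1410 CPM in HETStra8 and 1000 to 1140 CPM in KOStra8 mice. Of 10 Leydig cell markers 0 were above 0 (median −0.29), with 631 to 957 CPM and 532 to 681 CPM, and 1 of 8 macrophage markers was (median −0.36), with 82.8 to 96.0 CPM and 69.9 to 96.5 CPM. The medians were −0.15 for 6 peritubular myoid, −0.24 for 6 endothelial and −0.21 for 4 blood markers. At the same p 1 Leydig (Star), 3 macrophage (Cd68, C1qb and C1qc), 1 myoid (Des), 0 endothelial and 0 blood markers were lower. After the GC and length correction the medians were −0.11 for Sertoli, −0.19 for Leydig, −0.22 for macrophage, −0.07 for myoid, −0.20 for endothelial and −0.13 for blood markers. Then 3 of the 6 myoid markers were above 0, beside 49.7% of all genes. Germ cell lists lay nearer to 0, with medians of −0.06 for 11 spermatogonial markers, 0.05 for 9 leptotene and zygotene markers, −0.01 for 12 pachytene and diplotene markers, 0.01 for 12 round spermatid markers and −0.05 for 12 elongating spermatid markers. Of the 12 elongating spermatid markers 2 had a log2 fold change above 0, beside 48.5% of all genes. At an unadjusted p below 0.05, 1 (Cabs1) was higher, beside 7.13% of all genes, and 2 (Gapdhs and Oaz3) lower, beside 5.12%. After the GC and length correction 6 of these 12 were above 0, beside 49.7% of all genes, and the medians of the germ cell lists ran from −0.02 to 0.01. Of the 8 epididymal markers, 1 was tested and 1 was at 0 in all mice. The part of these shifts in the levels of the bromodomain genes was not tested.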

How the data were processed

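The authors deposited raw counts, the whole number of reads per Ensembl gene, in 1 table per mouse and without normalization. The submitters' processing notes name STAR 2.7.1a, featureCounts 1.6.0, HTSeq and StringTie 2.0.4 among other tools, and the builds mm10 and GRCm38. Which of the counters made these tables, and with which strand setting, was not given in the sources used here. Groups and mouse numbers follow the sample titles. The members and gene lists were chosen with earlier results of these data known.

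Counts were fitted in R 4.3.3 with edgeR 4.0.16 (filterByExpr, TMM factors, robust quasi-likelihood fit, two-sided F test, Benjamini-Hochberg adjustment over 21465 genes), with genotype as the only term. Symbols, positions, lengths and GC content came from GENCODE M21, and 8 tested genes had no GC value. At most 0.966% of the 50-base sequences of a member's transcripts were shared with another gene. The GC and length correction used loess offsets with a span of 0.3. Alternatives were DESeq2 1.42.0 and its size factors, library totals, limma-voom (limma 3.58.1), other filters, a block for the mouse number, an adjusted p of 0.05, the mean coding length, and leaving out each mouse. An exact permutation test of 3 against 3 mice cannot go below p = 0.1. The edgeR p-values set a difference against the variation between mice, estimated with information shared over all genes tested. Named were the members, in each list the 3 genes with the smallest p in each direction and any past an adjusted p of 0.05, the 5 profiles closest to Phip, and Sel1l. The result for 1 gene under this rule is not reported here. The scripts for these fits were tested on simulated data.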

Additional observations from a re-analysis of the deposited data

How the results depend on the processing

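Of 135 log2 fold changes of the members under 15 alternatives each, 125 moved by less than the spread between mice, and the sign changed for Brd3 in 2 and for Brd7 in 1 of its alternatives. The other 10 came with the GC and length correction, with or without a block. Leaving out each mouse in turn put Phip between 0.88 and 1.28, Atad2b between 0.27 and 0.53, Atad2 between 0.20 and 0.48, and Brdt between 0.12 and 0.33. Members higher at an unadjusted p below 0.05 numbered 1 after the correction and 2 to 4 with a mouse left out, with 2 without HETStra8 mouse 1. Members lower numbered 1 after the correction (Cecr2), and 0 to 1 with a mouse left out, the 1 being Brd2 without HETStra8 mouse 3. At the cutoffs of the study (fold of 2, adjusted p of 0.01) 1 member, Phip, passed without a filter, in DESeq2 and without HETStra8 mouse 3 (0 to 1 over the mice). The share of all genes past these cutoffs in those settings was not counted. Other bromodomain genes higher numbered 3 after the correction, 0 at an adjusted p of 0.05 and 2 to 10 with a mouse left out (2 without HETStra8 mouse 1, KOStra8 mouse 1 or KOStra8 mouse 3, 3 without HETStra8 mouse 2, 10 without HETStra8 mouse 3), and those lower 0 to 3. All genes higher numbered 874 after the correction and 945 to 2428 with a mouse left out, and those lower 754 and 499 to 1947, the lowest without KOStra8 mouse 3 and the highest without HETStra8 mouse 3. The cause of these shifts was not tested.

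Mice that share a number did not pair, with correlations of their deviations of −0.06, −0.05 and 0.11. With the number as a block, Phip had a log2 fold change of 1.07 and 1 member passed the cutoffs, the share of all genes again not being counted. With the block and the GC and length correction together, 2 members and 3 other bromodomain genes were higher, and 886 genes were higher and 680 lower in all. The 3 mice per group and an SE of 0.0659 to 0.178 for the members limit what could be detected, and differences as small as those of Brd3 or Brd7 were not detectable here. The difference of Cecr2 passed an unadjusted p of 0.05 only in the edgeR fit corrected for GC content and length, without the block.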
